A study of Mus musculus with 4 samples.

Results

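The 7 genes that build the ATP-sensitive potassium channel, the voltage-gated calcium channels and the calcium release channels of the endoplasmic reticulum in islet cells were followed through 4 single-cell libraries of mouse islets: Kcnj11, Abcc8, Cacna1d, Cacna1c, Cacna1a, Itpr1 and Ryr2. They were taken by gene symbol out of 32285 genes in the count tables, and each symbol matched 1 gene. The rule uses no measured value, although the genes were proposed with earlier results of these data known. The study has itself named Cacna1d and Itpr1 as lower in 1 of its beta cell clusters, drawn from these same libraries, so the direction of those genes in insulin-dominant cells is not independent evidence.

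In an islet beta cell, glucose metabolism raises ATP, which closes the ATP-sensitive potassium channel made of the pore subunit Kcnj11 and the sulfonylurea receptor Abcc8. The membrane then depolarises and voltage-gated calcium channels open. Cacna1d and Cacna1c form L-type pores and Cacna1a a P/Q-type pore. The incoming calcium triggers the release of insulin granules, and inositol trisphosphate receptors such as Itpr1 and ryanodine receptors such as Ryr2 can add calcium from the endoplasmic reticulum. Alpha and delta cells use channels of the same families to time the release of glucagon and somatostatin.

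Islets came from male mice homozygous for a knock-in substitution in Pax4 (HH), a homeodomain transcription factor of islet development, and from male wild-type mice (WT). Mice were 12 weeks old on a standard chow diet (SCD) or 16 weeks old, with the last 4 weeks on high-fat food (HFD), so age and diet cannot be told apart. Each of the 4 groups (WT SCD, HH SCD, WT HFD and HH HFD) was 1 library of pooled islets from several mice. No difference between genotypes within a diet, or between diets within a genotype, therefore has a replicate check, and the 95% intervals given for them reflect nothing beyond counting error. Unique molecular identifiers (UMIs), which count captured RNA molecules, were read from the 3-prime ends of transcripts. The knock-in allele is present in all cells of the HH mice, and the libraries hold whole dissociated islets rather than sorted cells.

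The libraries held 68011082 to 104810105 UMIs in 4665 to 7123 barcodes. Filters on mitochondrial share, UMIs and genes kept between 38.3% (WT HFD) and 67.8% (HH SCD) of barcodes, and 12650 cells remained. Of these, 11318 had a leading hormone: insulin in 2055, 2009, 1151 and 2970 cells, in the order WT SCD, HH SCD, WT HFD and HH HFD, which is used for every list of 4 values. Glucagon led in 389, 447, 274 and 459 cells, somatostatin in 303, 322, 156 and 278, and pancreatic polypeptide in 106, 140, 69 and 190. Among the classed cells, 12 barcode sequences occurred in more than 1 library. Of 7 beta cell markers, Mafa, Nkx6-1, Ucn3, Slc2a2 and G6pc2 were higher in insulin-dominant cells than in each other hormone class in all 4 libraries. Slc30a8 was higher in glucagon-dominant cells (508 to 566 against 336 to 486 CPM), and Pdx1 was at a like level in somatostatin-dominant cells (69.2 to 111 against 69.7 to 103 CPM). Ucn3, a beta cell peptide, reached 208 to 282 CPM (UMIs of a gene per 1000000 UMIs of the class in a library) in insulin-dominant cells and at most 8.44 CPM in the other hormone classes. Pax4 itself had 0 UMIs in all barcodes of the 4 libraries, so the labels could not be checked against it. Foreign RNA, estimated from the UMIs of other hormones with the sum of all barcodes as its profile, made up 2.16%, 2.96%, 1.39% and 9.64% of the UMIs of insulin-dominant cells. The insulin-dominant cells of HH HFD stood apart here. The alpha cell gene Ttr was also higher in them, at 2796 CPM against 1297 to 1356 CPM in the other libraries. The glucagon-, somatostatin- and pancreatic polypeptide-dominant cells of HH HFD had 2.29%, 2.98% and 2.04%, below the 3.04%, 3.87% and 3.47% of WT SCD. The estimate cannot tell free RNA from doublets or from other hormones made by the cells.

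In the annotation of GRCm38, Kcnj11 (chromosome 7, 46093953 to 46100764) and Abcc8 (chromosome 7, 46104523 to 46180033) lie next to each other on the minus strand, 3758 bases apart. Cacna1d spans chromosome 14, 30039939 to 30491455, and Cacna1c chromosome 6, 118587240 to 119196418, both on the minus strand. Cacna1a (chromosome 8, 84388440 to 84640246) and Itpr1 (chromosome 6, 108213096 to 108551109) lie on the plus strand, and Ryr2 (chromosome 13, 11553102 to 12106945) on the minus strand. No member overlaps another annotated gene on its own strand. On the other strand, Cacna1d overlaps Chdh and Dcp1a, Cacna1c overlaps Dcp1b, and Abcc8, Cacna1a and Itpr1 each overlap 1 predicted gene.

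Since Pax4 carries a homeodomain, the promoters of the members were searched for a homeodomain core, and the 250 bases before both annotated starts of Cacna1d, the only one of the 3 members in the table with a match, are shown, from RefSeq (GRCm38.p6, minus strand, 5′ to 3′). Capitals mark the homeodomain core letters TAAT read on either strand (ATTA is its reverse complement). The upstream start, at chr14:30491157-30491406, held 2 matches in 39.6% GC, and the downstream start, at chr14:30353487-30353736, held 0 matches in 86.4% GC. Both windows lie inside the GENCODE span of Cacna1d given above, whose 5-prime end is at 30491455, so the annotations differ in the first start.
Cacna1d upstream start: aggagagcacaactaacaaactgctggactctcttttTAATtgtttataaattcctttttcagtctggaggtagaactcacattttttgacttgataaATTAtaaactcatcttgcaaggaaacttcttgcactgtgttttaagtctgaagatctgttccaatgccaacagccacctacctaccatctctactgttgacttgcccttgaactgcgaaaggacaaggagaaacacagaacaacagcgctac
Cacna1d downstream start: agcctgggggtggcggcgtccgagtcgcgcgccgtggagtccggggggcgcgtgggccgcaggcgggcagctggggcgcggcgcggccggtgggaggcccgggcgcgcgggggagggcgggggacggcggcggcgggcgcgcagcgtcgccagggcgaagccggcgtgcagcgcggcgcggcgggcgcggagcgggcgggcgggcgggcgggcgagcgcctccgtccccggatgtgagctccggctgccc
Such a match is frequent: 54.9% of the 32851 windows of this length in the table held at least 1, and the median GC was 52.4%. The counts are of transcript ends and do not tell which start was used. The 3 windows of Cacna1c and the 1 of Ryr2 held 0 matches. Kcnj11, Abcc8, Cacna1a and Itpr1 had no entry in the table.

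Between the hormone classes, 1 member stood far apart. Itpr1, an inositol trisphosphate receptor that releases calcium from the endoplasmic reticulum, was about 10.7 times lower in insulin-dominant than in glucagon-dominant cells, 10.5 times lower than in somatostatin-dominant cells and 5.31 times lower than in pancreatic polypeptide-dominant cells. In the main fit, with TMM scaling, the remaining detected members differed between classes by at most 1.02 on the log2 scale. That value, for Cacna1c between insulin- and pancreatic polypeptide-dominant cells, reached 1.19 over the other settings. With library sizes from all UMIs the difference reached -1.54, for Cacna1a between insulin- and somatostatin-dominant cells. Ryr2, the ryanodine receptor, had at most 3 UMIs in any class of a library. Hormones took very unequal shares of the classes (insulin 54.4% to 55.8% of UMIs in insulin-dominant cells, somatostatin 18.2% to 19.0% in somatostatin-dominant cells), so levels across classes are given as UMIs outside 7 islet hormone genes scaled as CPM, called CPM outside the hormones. Classes were tested with edgeR on UMIs summed per library and class, with the library as a block, over 11658 genes.

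**Figure D1:**
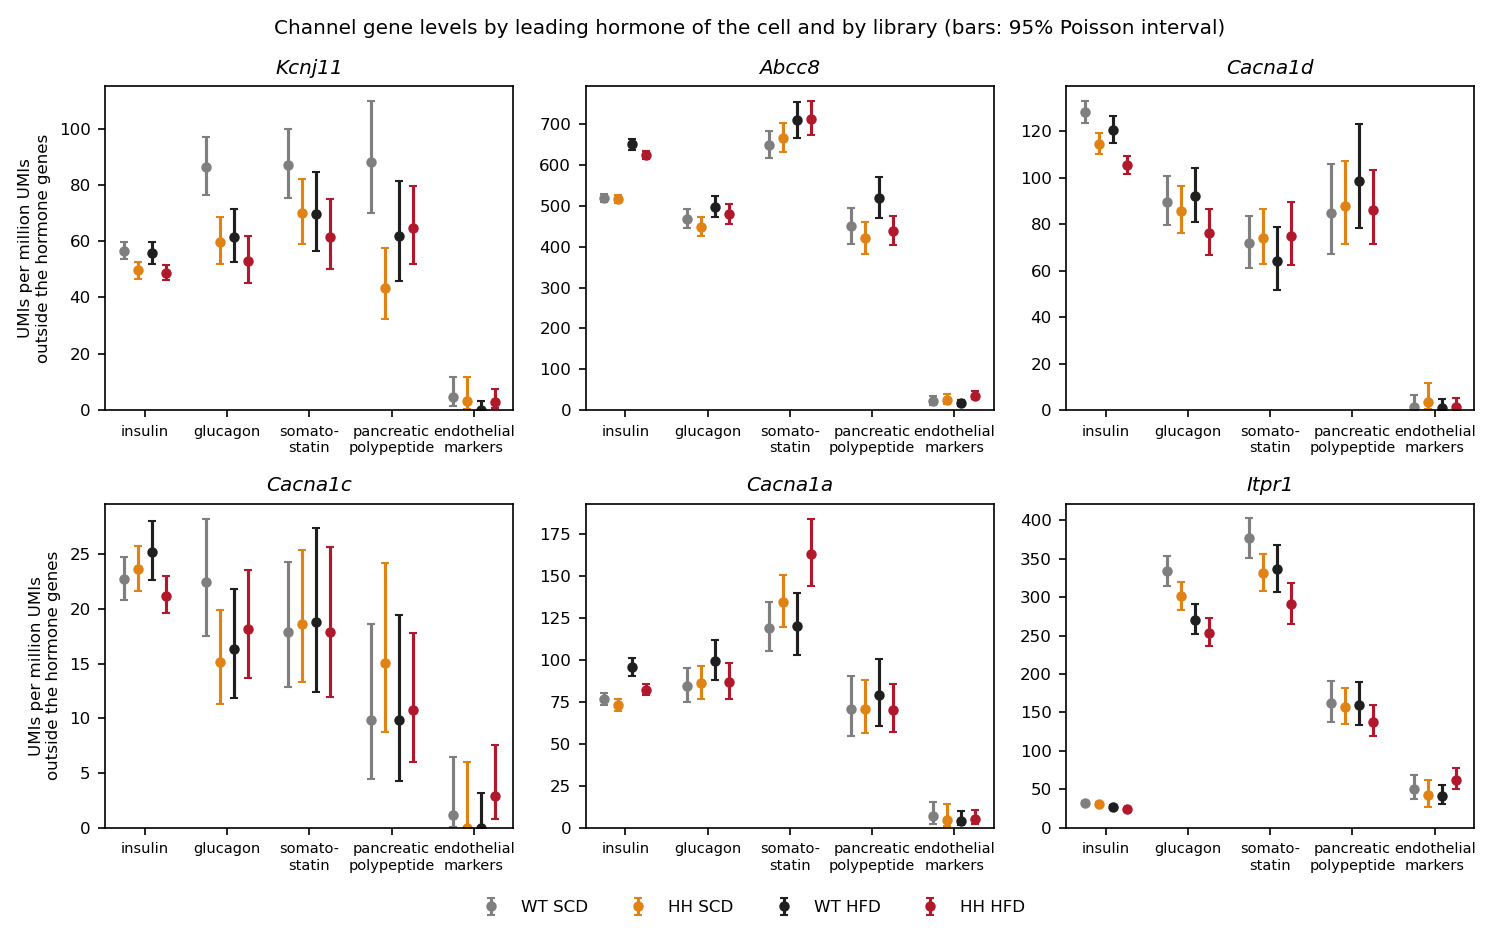
Level of 6 channel genes (y axis, CPM outside the hormones, linear and from 0) in cells grouped by leading hormone and in cells with endothelial markers (x axis). Each point is 1 library and each bar its 95% Poisson interval. Itpr1 sits at 24.4 to 32.5 in insulin-dominant cells and at 254 to 376 in glucagon- and somatostatin-dominant cells.

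Itpr1 was measured at 32.5, 31.5, 26.5 and 24.4 CPM outside the hormones in insulin-dominant cells. In glucagon-dominant cells the 4 values were 333, 301, 271 and 254, and in somatostatin-dominant cells 376, 331, 336 and 291. In pancreatic polypeptide-dominant cells they were 162, 157, 159 and 138, between the other classes, with no overlap with either. The log2 difference of insulin- from glucagon-dominant cells was -3.42 (SE 0.068, adjusted p = 2.51e-19, edgeR), and that from somatostatin-dominant cells -3.39 (SE 0.069, adjusted p = 4.05e-19, edgeR). Against pancreatic polypeptide-dominant cells it was -2.41 (SE 0.075, adjusted p = 3.88e-16, edgeR). Glucagon- and somatostatin-dominant cells gave no call (0.03, SE 0.064, adjusted p = 0.77, edgeR), but the call was gained, lower in glucagon-dominant cells, with library sizes outside the hormones (-0.20, adjusted p = 0.013, edgeR) and from all UMIs (-0.36, adjusted p = 0.00043, edgeR). The order of levels was thus insulin, pancreatic polypeptide, then glucagon and somatostatin, whose order depends on the scaling. Over 12 other settings the insulin-glucagon difference stayed between -4.00 and -3.33.

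Part of the Itpr1 UMIs of insulin-dominant cells can be foreign RNA, since its level over all barcodes was 43.9, 41.9, 37.4 and 28.8 CPM against 13.5, 12.7, 10.7 and 9.54 CPM in insulin-dominant cells. Subtracting the estimated foreign part removed 6.997%, 9.79%, 4.86% and 29.1% of them and left 12.9, 11.8, 10.3 and 7.48 CPM. After thinning each cell to 5000 UMIs, 6.72%, 4.88%, 5.82% and 4.61% of insulin-dominant cells had an Itpr1 UMI, against 66.6%, 59.7%, 55.8% and 48.7% of glucagon-dominant cells. Before thinning, the insulin shares were 26.8%, 24.9%, 24.7% and 18.2% at median depths of 24350 to 29878 UMIs, and the glucagon shares 90.2%, 83.4%, 88.7% and 73.0% at 10051 to 16002 UMIs. Cells with endothelial markers held more of it than insulin-dominant cells (17.0%, 12.9%, 16.0% and 21.3% after thinning), so they give no background for this gene. How much of the insulin-dominant signal is foreign was not tested beyond the subtraction.

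Kcnj11, the potassium pore, was measured at 56.6, 49.7, 55.8 and 48.8 CPM outside the hormones in insulin-dominant cells. Values were 86.3, 59.7, 61.7 and 53.1 in glucagon-dominant, 87.0, 69.9, 69.7 and 61.6 in somatostatin-dominant and 88.3, 43.5, 61.8 and 64.8 in pancreatic polypeptide-dominant cells. The insulin-dominant cells were the lowest class in mean (52.7 ± 4.1, SD, n = 4 libraries), and the other means were 64.6 to 72.1. In edgeR the gene was lower in insulin- than in glucagon-dominant cells by a log2 difference of -0.38 (SE 0.096, adjusted p = 0.0020) and than in somatostatin-dominant cells by -0.30 (SE 0.10, adjusted p = 0.016). Without the WT SCD library these were -0.24 (adjusted p = 0.052, edgeR) and -0.23 (adjusted p = 0.084, edgeR), and without HH SCD the latter was -0.27 (adjusted p = 0.059, edgeR). The latter call was also lost without the filter on low counts (-0.21) and without the library block (-0.32). With library sizes from all UMIs the differences were larger, at -0.96 against glucagon (adjusted p = 3.72e-08, edgeR) and -1.26 against somatostatin (adjusted p = 1.02e-09, edgeR). Against pancreatic polypeptide-dominant cells the difference was -0.26 (adjusted p = 0.076, edgeR), and it passed without HH SCD (-0.37) and with library sizes from all UMIs (-0.58).

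Abcc8, the regulatory partner of that pore, was measured at 520, 516, 651 and 625 CPM outside the hormones in insulin-dominant cells. It reached 650, 667, 709.5 and 714 in somatostatin-dominant cells, 469, 449, 498 and 480 in glucagon-dominant cells and 450, 420, 519 and 438 in pancreatic polypeptide-dominant cells. The difference of insulin- from somatostatin-dominant cells did not pass (-0.10, SE 0.076, adjusted p = 0.25, edgeR). On the printed scale, with library sizes outside the hormones, it was called (-0.25, adjusted p = 0.0027, edgeR), as it was with library sizes from all UMIs (-1.07, adjusted p = 2.1e-11, edgeR). Insulin-dominant cells were higher than pancreatic polypeptide-dominant cells (0.36, SE 0.078, adjusted p = 0.00063, edgeR) and, more weakly, than glucagon-dominant cells (0.20, SE 0.076, adjusted p = 0.029, edgeR). Glucagon-dominant were below somatostatin-dominant cells (-0.30, SE 0.077, adjusted p = 0.0031, edgeR). The insulin-glucagon call was lost when HH SCD, WT HFD or HH HFD was left out (0.23, 0.17 and 0.15), with the looser filter on cells (0.12) and without the library block (0.20). With library sizes from all UMIs it turned to -0.39, a call the other way (adjusted p = 4.8e-05, edgeR). The call against pancreatic polypeptide was lost under that setting (0.04).

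The channel needs both subunits, and the ratio of their UMIs can be followed between samples, although unequal capture of the transcripts keeps it from giving a stoichiometry. In insulin-dominant cells there were 9.18, 10.4, 11.7 and 12.8 Abcc8 UMIs per Kcnj11 UMI. In glucagon-dominant cells there were 5.43, 7.52, 8.08 and 9.04, and in somatostatin-dominant cells 7.46, 9.55, 10.2 and 11.6. In these 3 classes WT SCD had the lowest ratio and HH HFD the highest. The interval of WT SCD in insulin-dominant cells (8.67 to 9.73) did not reach that of HH SCD (9.75 to 11.1). Pancreatic polypeptide-dominant cells, with 49 to 90 Kcnj11 UMIs per library, had 5.10, 9.65, 8.40 and 6.77 in no such order.

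Cacna1d, an L-type pore, was higher in insulin-dominant cells than in each other class. It was measured at 128, 115, 121 and 105 CPM outside the hormones there, at 89.7, 85.9, 92.1 and 76.2 in glucagon-dominant cells, at 71.7, 74.1, 64.1 and 75.1 in somatostatin-dominant cells and at 85.0, 88.0, 98.8 and 86.3 in pancreatic polypeptide-dominant cells. All 4 insulin values lay above all values of the other classes. The log2 difference was 0.86 against somatostatin (SE 0.076, adjusted p = 3.96e-09, edgeR), 0.36 against glucagon (SE 0.069, adjusted p = 0.00013, edgeR) and 0.41 against pancreatic polypeptide (SE 0.082, adjusted p = 0.00029, edgeR). With library sizes from all UMIs the first became -0.11 (adjusted p = 0.26, edgeR). The second became -0.22, a call the other way (adjusted p = 0.019, edgeR), and the third lost its call (0.08, adjusted p = 0.47, edgeR). Glucagon-dominant cells were above somatostatin-dominant cells (0.50, SE 0.083, adjusted p = 4.76e-05, edgeR), a call that was also lost under that setting (0.11, adjusted p = 0.32, edgeR).

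Cacna1c, the other L-type pore, was measured at 22.7, 23.7, 25.2 and 21.2 CPM outside the hormones in insulin-dominant cells and at 9.8 to 15.1 in pancreatic polypeptide-dominant cells. That gap of 1.02 (SE 0.19, adjusted p = 0.00011, edgeR) rested on 8 to 17 UMIs per library in the latter class. It was 0.49 higher than in somatostatin-dominant cells (SE 0.14, adjusted p = 0.0048, edgeR). Under library sizes from all UMIs this turned to -0.48, a call the other way (adjusted p = 0.0056, edgeR). Against glucagon-dominant cells the difference of 0.28 did not pass (adjusted p = 0.059, edgeR), and it passed without the WT SCD library (0.43, adjusted p = 0.015, edgeR). It also passed with library sizes outside the hormones, the printed scale (0.36, adjusted p = 0.016, edgeR), without the filter on low counts (0.34) and with the looser filter on cells (0.27). With library sizes from all UMIs it turned to -0.31, a call the other way (adjusted p = 0.038, edgeR).

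Cacna1a, the P/Q-type pore, had the opposite lean. Somatostatin-dominant cells held 119, 135, 121 and 163 CPM outside the hormones, above the 77.0, 73.0, 95.8 and 82.3 of insulin-dominant cells in each library (-0.57, SE 0.086, adjusted p = 7.32e-06, edgeR). Glucagon-dominant cells, at 84.8, 86.2, 99.4 and 87.1, were above insulin-dominant cells by a smaller margin (-0.21, SE 0.084, adjusted p = 0.036, edgeR). This call was lost when WT SCD (-0.18) or HH SCD (-0.17) was left out, with library sizes outside the hormones, the printed scale (-0.13, adjusted p = 0.20, edgeR), with the leading hormone at 5 times the next (-0.20), without the filter on low counts (-0.14) and without the library block (-0.21). With library sizes from all UMIs it was -0.79 (adjusted p = 8.88e-08, edgeR), and the difference from somatostatin-dominant cells was -1.54 (adjusted p = 3.34e-12, edgeR). Glucagon-dominant were also below somatostatin-dominant cells (-0.36, SE 0.093, adjusted p = 0.0032, edgeR). Pancreatic polypeptide-dominant cells, at 70.9, 71.1, 79.1 and 70.5, gave no call against insulin-dominant cells (0.19, adjusted p = 0.13, edgeR), except without the filter on low counts (0.30).

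The mix of the 3 pores can be compared without any scaling between classes. It gives shares and not levels, leaves out other pores and contains the unequal capture of the transcripts. Cacna1d gave 56.3%, 54.2%, 49.9% and 50.5% of the UMIs of Cacna1d, Cacna1c and Cacna1a in insulin-dominant cells, 45.6%, 45.9%, 44.3% and 42.0% in glucagon-dominant cells and 34.3%, 32.6%, 31.5% and 29.3% in somatostatin-dominant cells. The mean gap between insulin- and somatostatin-dominant cells was 20.8 percentage points (SD 1.6), with insulin higher in 4 of 4 libraries (exact two-sided sign-flip permutation test, p = 0.125, the smallest that 4 libraries allow). Pancreatic polypeptide-dominant cells, at 51.3%, 50.5%, 52.6% and 51.5%, were above insulin-dominant cells in 2 of the 4 libraries. The Cacna1a part went from 33.8% to 39.7% in insulin-dominant cells to 57.1% to 63.7% in somatostatin-dominant cells.

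**Figure D2:**
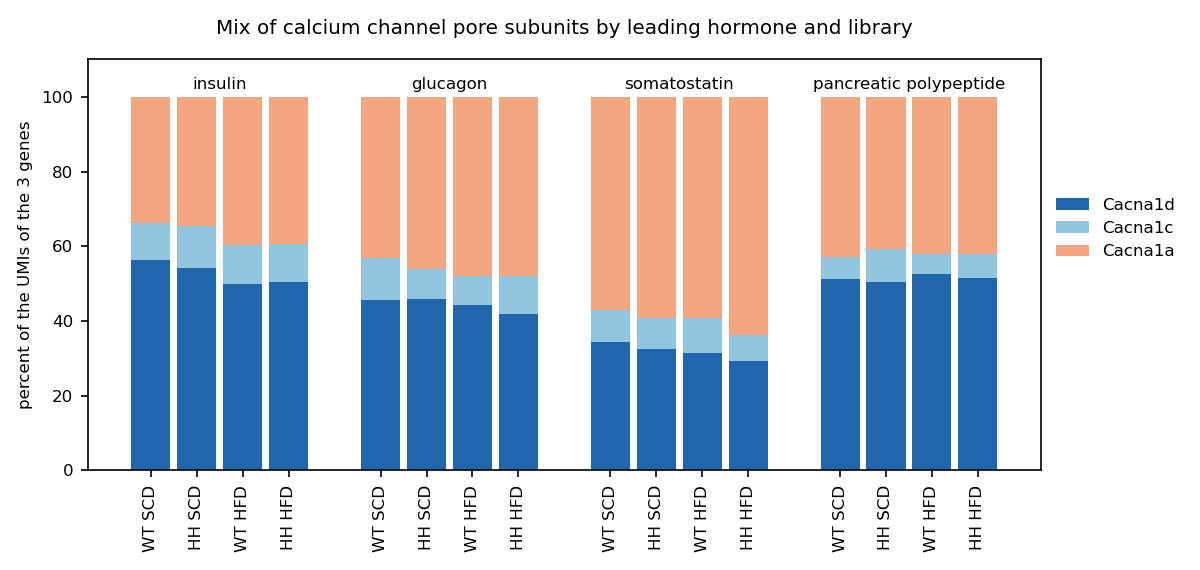
Percent of the summed UMIs of 3 calcium channel pore genes (y axis, 0 to 100) that each gene took, by leading hormone and library (x axis, 1 bar a library). The Cacna1d part falls from 49.9% to 56.3% in insulin-dominant cells to 29.3% to 34.3% in somatostatin-dominant cells, while the Cacna1a part widens.

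Ryr2 had 0, 0, 0 and 3 UMIs in insulin-dominant cells and 8 over all 4 hormone classes and libraries, and 5, 3, 3 and 9 over all barcodes. A count of 0 in insulin-dominant cells, by a floor of 3 counts, allows up to 0.054 CPM in WT SCD, 0.056 in HH SCD and 0.087 in WT HFD, and the upper Poisson limits are 0.0665, 0.0689 and 0.107 CPM. Its expression was not detectable at this depth, no ratio is reported from so few UMIs, and it did not pass the filter on low counts.

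Of the 6 members tested, 5 were called between insulin- and glucagon-dominant cells (2 higher, 3 lower in insulin), 5 between insulin and somatostatin (2 higher, 3 lower), 4 between insulin and pancreatic polypeptide (3 higher, 1 lower) and 3 between glucagon and somatostatin (1 higher, 2 lower). Calls were common among all genes. Of the 11658 genes, 31.0% were called higher and 29.7% lower for insulin against glucagon, 30.3% and 29.7% against somatostatin, 27.5% and 24.8% against pancreatic polypeptide, and 22.1% and 22.1% for glucagon against somatostatin. Between 44.2% and 60.7% of all genes were called in these comparisons, so the counts of members called are not a result about the members.

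Library sizes from all UMIs moved the median log2 difference of all genes from near 0 to -0.58 for insulin against glucagon, -0.96 against somatostatin, -0.30 against pancreatic polypeptide and -0.37 for glucagon against somatostatin. The share of calls that were higher in the first class fell with it from 51.1% to 14.4%, from 50.5% to 6.51%, from 52.6% to 25.2% and from 50.01% to 13.6%. Library sizes outside the hormones gave 59.4%, 38.1%, 50.9% and 23.2%. The 3 insulin differences of Itpr1 kept their direction and their call under both.

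**Figure D3:**
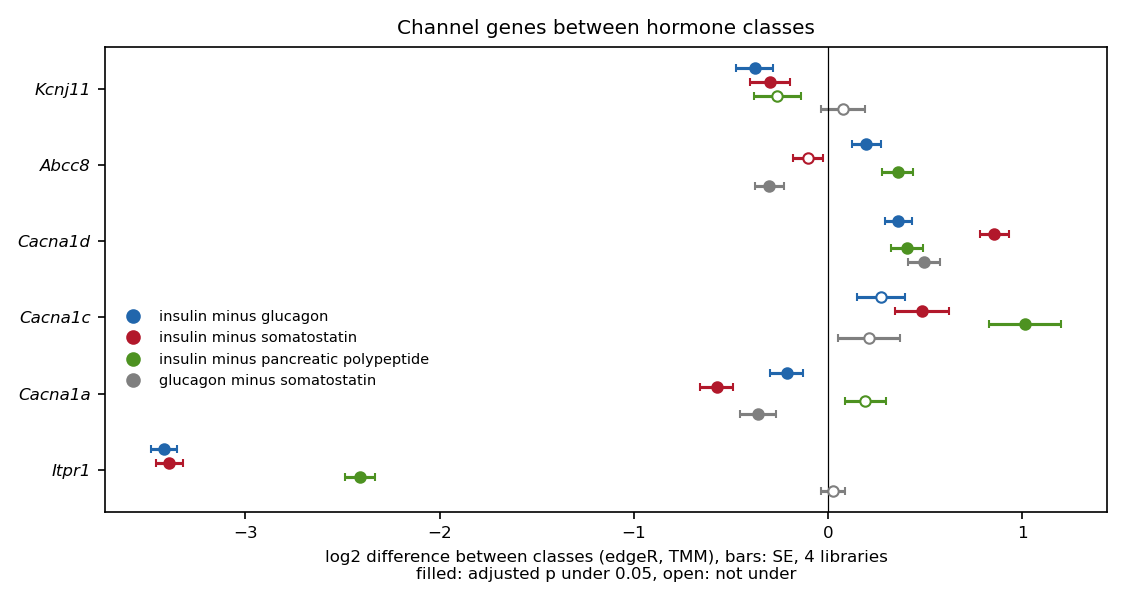
Log2 difference between hormone classes (x axis) for the 6 tested channel genes (y axis), from edgeR over 4 libraries, with SE bars. Filled points passed an adjusted p of 0.05. The 3 insulin differences of Itpr1 lie between -3.42 and -2.41 and the other points between -0.57 and 1.02.

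Genes of the same pathway were read from 7 lists of 60 genes. Itpr2 and Itpr3, relatives of Itpr1, are named with other list genes of this paragraph after their values were seen. Itpr2 went against Itpr1 and was higher in insulin- than in glucagon-dominant cells (3.41, SE 0.24, adjusted p = 1.25e-10, edgeR), at 6.01 to 9.10 CPM against 0.67 to 1.43 CPM. Itpr3 gave no call between these classes (0.04, adjusted p = 0.81, edgeR). Among 7 other calcium pores, 3 were tested and all 3 were lower in insulin- than in somatostatin-dominant cells. Cacna1h, a T-type pore, gave 31.2 to 36.9 CPM in somatostatin-dominant cells and at most 0.34 CPM in insulin-dominant cells (-6.69, SE 0.29, adjusted p = 4.24e-14, edgeR).

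Of 10 auxiliary calcium channel subunits, 8 were tested and 6 were lower and 1 higher in insulin- than in somatostatin-dominant cells, with the same counts against glucagon. Over all genes tested, 30.3% were called higher and 29.7% lower against somatostatin, and 31.0% and 29.7% against glucagon, and the list counts of these paragraphs stand beside those shares. Cacna2d2, which aids the surface expression of calcium pores, gave 56.4 to 76.8 CPM in somatostatin-dominant cells and at most 0.50 CPM in insulin-dominant cells (-7.09, SE 0.30, adjusted p = 2.48e-14, edgeR). Of 18 pump, exchanger and calcium entry genes, 15 were tested, and 9 were higher and 2 lower in insulin- than in glucagon-dominant cells, against 4 higher and 5 lower for somatostatin. Of 11 other potassium channel genes, 8 were tested, with 3 higher and 3 lower against glucagon and 4 and 4 against somatostatin, and of 6 sodium channel genes 1 was higher and 2 lower against glucagon and 1 and 4 against somatostatin. The ER calcium release list had 2 higher and 1 lower of 4 tested against glucagon, and 2 and 2 against somatostatin. Kcnj8 and Abcc9, the vascular relatives of Kcnj11 and Abcc8, did not pass the filter on low counts and had 14 and 18 UMIs in all insulin-dominant cells.

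By likeness of log2(CPM + 1) over the 16 sums of class and library, Itpr1 was near to A2ml1 and Ptprk (Pearson r of 0.995 and 0.992). Cacna1d was nearest to Vps13a, Got2 and Ythdf1 (0.870, 0.855 and 0.851), and Kcnj11 to Mef2d, Poc1b and Pex19 (0.953, 0.942 and 0.941). Abcc8 was nearest to Arglu1, Jam3 and Sap30l (0.984, 0.983 and 0.978), and Cacna1a to Rrm2b, Hdac2 and Bag1 (0.983, 0.981 and 0.979). The 4 sums of a class share the unequal hormone load of that class, which these values contain.

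Between genotypes, the question was whether the knock-in lowered channel genes in insulin-dominant cells on either diet. In CPM, 5 members were at the minimum of 10 CPM, set on the mean of the compared libraries (Kcnj11, Abcc8, Cacna1d, Cacna1a and Itpr1), and all 5 had a log2 ratio of HH over WT below 0 in both diets. Itpr1 reached the minimum in HFD only through WT, where it is higher (10.7 against 9.54 CPM), which favours a ratio below 0. None passed the fold of 1.3 that was used in place of a test. The HFD libraries also differed in markers within this class: Mafa was at 310 CPM in WT and 192 in HH, Slc2a2 at 303 and 152, and Gc at 57.5 and 148. Gc, listed as an alpha cell marker, was not particular to glucagon-dominant cells (164 and 178 CPM). It was at 208 and 219 CPM in somatostatin- and 212 and 179 CPM in pancreatic polypeptide-dominant cells. The part of a difference in beta cell states in the HFD ratios was not tested. Most genes leaned the same way. Of 6058 genes at that level in SCD, 76.9% were below 0 and 1.24% passed the fold, and of 5908 in HFD 74.3% were below 0 and 9.56% passed. The median of the 5 was -0.13 in SCD beside -0.08 over all genes, and -0.24 in HFD beside -0.12.

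Kcnj11 was measured in SCD at 23.6 CPM for WT and 19.96 for HH, and in HFD at 22.6 and 19.1. Both HH libraries lay below both WT libraries, with log2 ratios of -0.24 (interval -0.36 to -0.13) in SCD and -0.24 (interval -0.37 to -0.12) in HFD. Cacna1d showed the same order, with 53.5 CPM for WT against 46.1 for HH on SCD, and 48.9 against 41.3 on HFD. Its ratios were -0.22 (interval -0.29 to -0.14) and -0.24 (interval -0.33 to -0.16).

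Cacna1a was measured at 32.1 and 29.4 CPM in SCD and at 38.8 and 32.2 in HFD, with ratios of -0.13 (interval -0.23 to -0.03) and -0.27 (interval -0.37 to -0.17). Of the 5 members at the minimum, Abcc8 had the ratio nearest to 0, from 217 to 207 CPM in SCD (-0.07, interval -0.10 to -0.03) and from 264 to 244 CPM in HFD (-0.11, interval -0.15 to -0.07). The intervals of Itpr1 included 0 in both diets, at 13.5 and 12.7 CPM in SCD (-0.10, interval -0.25 to 0.06) and 10.7 and 9.54 CPM in HFD (-0.17, interval -0.35 to 0.02). With foreign RNA subtracted, the HFD ratio of Itpr1 became -0.47, past the fold, but the subtraction left 10.3 and 7.48 CPM, a mean under the minimum. Cacna1c, under the minimum, was at 9.48 and 9.50 CPM in SCD (0.00, interval -0.17 to 0.18) and at 10.2 and 8.31 CPM in HFD (-0.30, interval -0.49 to -0.11).

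Median-of-ratios scaling moved the median of all genes from -0.08 to 0.01 in SCD and from -0.12 to -0.02 in HFD. Relative to the median of all genes, Kcnj11 was at -0.16 and -0.12, Cacna1d at -0.14 and -0.12, Cacna1a at -0.05 and -0.15, Itpr1 at -0.02 and -0.04 and Abcc8 at 0.02 and 0.01, in SCD and HFD. In HFD the Kcnj11 value was -0.03 with the looser filter on cells, while Cacna1d was at -0.19 and Cacna1a at -0.20 there. The HFD value of Itpr1 was -0.22 with doublets removed by score rank, -0.12 with the leading hormone at 5 times the next and -0.32 with foreign RNA subtracted. Abcc8 therefore lay with the bulk of genes, and its ratio in SCD was 0.02 under that scaling. The HH HFD library had the largest foreign share of the insulin-dominant class (9.64%), and its part in the HFD ratios of the members other than Itpr1 was not tested beyond the subtraction, which kept each of them within 1.3 fold.

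**Figure D4:**
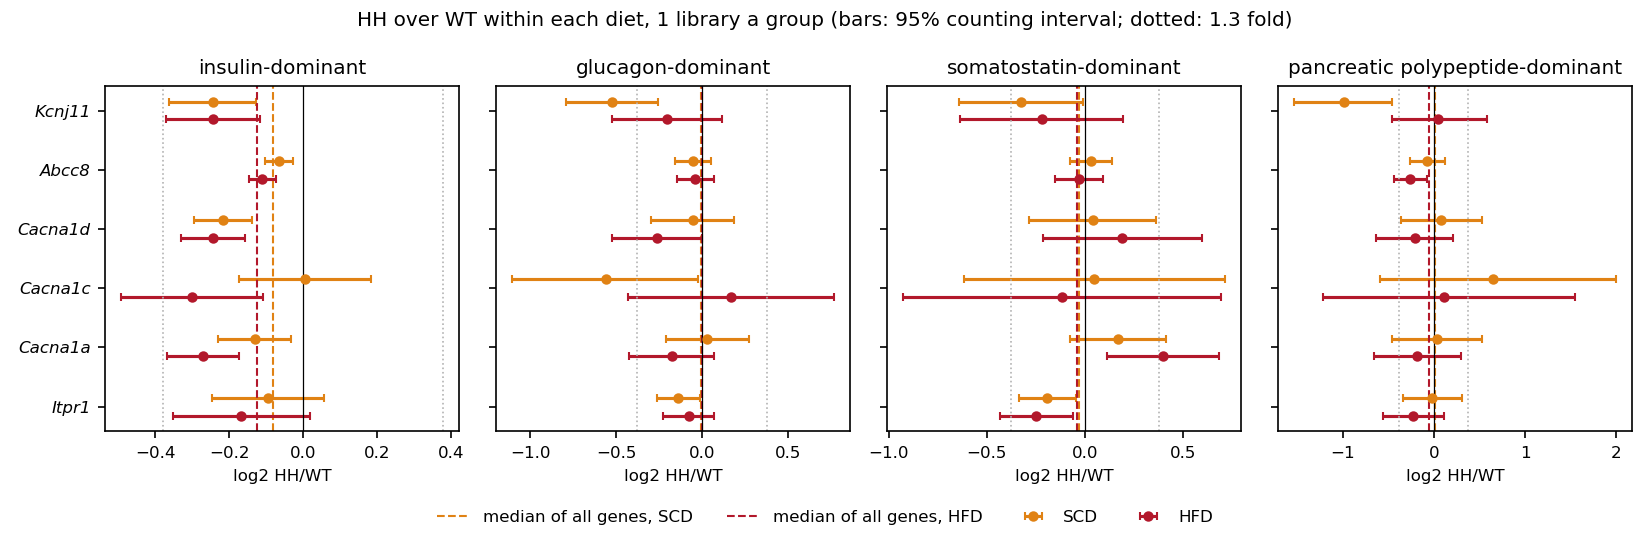
Log2 ratio of HH over WT (x axis) of 6 channel genes (y axis) within each diet, 1 panel a hormone class, with 95% counting intervals. Dashed lines are the median of all genes and dotted lines the 1.3 fold. In insulin-dominant cells Kcnj11 and Cacna1d lie left of both medians in both diets and Abcc8 lies beside them.

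In glucagon-dominant cells 6 members were at the minimum. In SCD, 2 of them passed the fold, beside 7.30% of 7265 genes: Kcnj11, at 57.2 CPM in WT and 39.8 in HH (-0.52, interval -0.79 to -0.26), and Cacna1c, at 14.9 and 10.1 CPM (-0.56, interval -1.10 to -0.02) from 73 and 51 UMIs. In HFD 0 of 6 passed, beside 8.99% of 7241 genes, and Kcnj11 was at 38.0 and 33.0 CPM (-0.20, interval -0.52 to 0.12). In somatostatin-dominant cells 0 of 6 passed in SCD, beside 12.6% of 8174 genes, and 1 in HFD, beside 18.3% of 8452 genes. That was Cacna1a, higher in HH at 115 CPM against 87.4 (0.39, interval 0.11 to 0.68), while it was lower in HH in insulin-dominant cells. With no ratio to the next hormone required, its value in somatostatin-dominant cells was 0.32 and did not pass the fold. Whether the genotype ratios differ between these classes was not tested. Itpr1 in somatostatin-dominant cells was at 269 and 235 CPM in SCD (-0.19, interval -0.34 to -0.05) and 244 and 205 CPM in HFD (-0.25, interval -0.43 to -0.06).

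In pancreatic polypeptide-dominant cells 1 of 5 members passed the fold in SCD, beside 21.2% of 6213 genes, and 0 of 5 in HFD, beside 21.9% of 6767 genes. The 1 was Kcnj11, at 42.5 CPM for WT and 21.3 for HH (-0.99, interval -1.53 to -0.46) from 81 and 49 UMIs, and it was at 31.7 and 32.8 CPM in HFD. In SCD, Kcnj11 was thus lower in HH with an interval below 0 in all 4 hormone classes. In HFD its interval stayed below 0 in insulin-dominant cells and included 0 in the other classes. These classes share their library, so they are not independent.

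Between diets within a genotype, Itpr1 and Abcc8 of insulin-dominant cells went in opposite directions. Itpr1 was lower in HFD in both genotypes (WT -0.34, interval -0.52 to -0.16, and HH -0.41, interval -0.56 to -0.26, or -0.66 in HH with foreign RNA subtracted, which left 11.8 and 7.48 CPM, a mean under the minimum), and Abcc8 was higher (WT 0.28, interval 0.24 to 0.32, and HH 0.24, interval 0.20 to 0.27). Cacna1a was also higher (WT 0.27, interval 0.17 to 0.38, and HH 0.13, interval 0.04 to 0.23) and Cacna1d lower (WT -0.13, interval -0.22 to -0.04, and HH -0.16, interval -0.24 to -0.08). Of the 5 members at the minimum, 0 passed the fold in WT, beside 14.0% of 6168 genes, and 1 in HH, Itpr1, beside 18.9% of 5829 genes. Itpr1 reached the minimum there only through HH SCD, where it is higher (12.7 against 9.54 CPM), which favours that count. In glucagon-dominant cells the Itpr1 values were -0.41 in WT (interval -0.54 to -0.27) and -0.35 in HH (interval -0.48 to -0.21). Kcnj11 gave -0.06 in both genotypes in insulin-dominant cells, with intervals that included 0. It gave -0.59 in WT (interval -0.87 to -0.31) and -0.27 in HH (interval -0.58 to 0.04) in glucagon-dominant cells, and -0.42 in WT (interval -0.96 to 0.10) and 0.62 in HH (interval 0.10 to 1.15) in pancreatic polypeptide-dominant cells, so it had no single direction. The HH comparison and the HFD comparison of genotypes share the HH HFD library.

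The share of insulin-dominant cells with a UMI, after thinning to 5000 UMIs a cell, was lower in HH than in WT within each diet for Kcnj11, Cacna1d and Abcc8, the direction in which most genes lean, and higher in HH on SCD for Cacna1c (4.38% in WT and 4.78% in HH). For Kcnj11 it was 11.2%, 9.26%, 11.4% and 8.92%, for Cacna1d 24.98%, 22.5%, 23.1% and 20.5%, and for Abcc8 65.6%, 63.0%, 73.6% and 70.4%. Without thinning the shares were 45.5%, 39.7%, 45.8% and 36.7% for Kcnj11 and 72.8%, 68.2%, 74.98% and 61.8% for Cacna1d. In cells with endothelial markers, which should lack islet channel genes, the thinned shares were 0% to 2.84% for Kcnj11, 0% to 1.43% for Cacna1d and 4.58% to 9.43% for Abcc8, at median depths of 5821 to 7175 UMIs, where a count of 0, by a floor of 3 counts, allows a share of up to 2.29% to 4.29%. In insulin-dominant cells Cacna1c reached 3.84% to 4.78% and Cacna1a 13.4% to 20.1%, beside 0% to 0.709% and 0% to 2.83% in the cells with endothelial markers. For Cacna1c that background is not resolved, since its upper Clopper-Pearson limits are 2.78% to 5.13%. The order of the genotypes in insulin-dominant cells depended in part on the depth of thinning. With thinning to 10000 UMIs a cell, Cacna1c on SCD was lower in HH (8.74% in WT and 8.17% in HH). Kcnj11 on HFD was then no longer lower in HH (18.1% in WT and 18.2% in HH), but on SCD it still was (21.7% and 17.7%). Cacna1d and Abcc8 stayed lower in HH within each diet.

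In the pathway lists, genes at a mean of 10 CPM or more in insulin-dominant cells that passed the fold in HFD were Fkbp1b, Atp2a2 and Scn3a. Fkbp1b, which binds ryanodine receptors, was at 76.3 CPM in WT and 54.7 in HH (-0.48, interval -0.55 to -0.41), and Atp2a2, which pumps calcium back into the endoplasmic reticulum, at 432 and 325 CPM (-0.41, interval -0.44 to -0.38). In SCD they gave -0.25 and -0.19. Scn3a, a sodium channel pore, was at 7.65 and 13.0 CPM in HFD (0.76, interval 0.57 to 0.97). It reached the minimum only through HH, the library in which it is high, so its place among these genes is favoured by that minimum. Scn3a had 39.3 to 50.3 CPM in glucagon- and 75.5 to 89.8 CPM in somatostatin-dominant cells. The estimated foreign share of insulin-dominant cells was highest in HH HFD, which did not hold for its other classes. The part of foreign RNA in this value was not tested. By list, the auxiliary subunits had 0 of 3 genes at the minimum past the fold in either diet and all 3 below 0. The pump, exchanger and entry list had 1 of 11 past the fold in each diet and 9 below 0. Potassium channels had 0 of 4 in SCD and 0 of 5 in HFD. Over all genes, 76.9% in SCD and 74.3% in HFD were below 0 and 1.24% and 9.56% passed the fold, so the counts below 0 are near the general lean.

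Insulin-dominant cells were also split by whether a UMI of Mafa, a transcription factor of mature beta cells, was seen after thinning to 5000 UMIs. It was seen in 75.8%, 75.1%, 68.4% and 53.0% of them. Itpr1 was higher in cells without a Mafa UMI in all 4 libraries, at 18.4, 17.8, 12.4 and 11.4 CPM against 12.1, 11.1, 9.97 and 7.80 CPM. The log2 ratios were 0.61 (interval 0.38 to 0.84), 0.68 (interval 0.45 to 0.91), 0.32 (interval -0.00 to 0.63) and 0.54 (interval 0.32 to 0.76), and only that of WT HFD included 0. Foreign hormones did not go evenly with the split: Ppy was at 913, 813, 466 and 1806 CPM without a Mafa UMI against 150, 545, 140 and 757 CPM with one. Gcg was at 515, 916, 272 and 2662 CPM without against 456, 613, 268 and 1160 CPM with one. Sst was higher without a Mafa UMI in SCD (121 against 86.7 and 140 against 99.3 CPM) and lower in HFD (79.8 against 147 and 619 against 682 CPM). Within the cells at or under the median share of other hormones, where Gcg, Sst and Ppy levels were alike in both parts, the Itpr1 ratios were 0.49, 0.55, 0.32 and 0.51. With the split made at 10000 UMIs they were 0.67, 1.12, 0.66 and 0.41. The ratios of Kcnj11 lay between -0.09 and -0.04, all with intervals that included 0, and those of Cacna1d between -0.04 and 0.14, with an interval above 0 in HH SCD (0.01 to 0.27). Abcc8 was higher without a Mafa UMI in WT SCD (0.13, interval 0.07 to 0.19) and HH SCD (0.10, interval 0.04 to 0.16). In HH HFD, Cacna1a (-0.15, interval -0.27 to -0.03) and Cacna1c (-0.29, interval -0.52 to -0.05) were lower. The study reported Itpr1 and Cacna1d as lower in a beta cell cluster that also had reduced Mafa. Itpr1 went the other way here, but cells without a Mafa UMI are not that cluster, and the groupings were not compared.

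**Figure D5:**
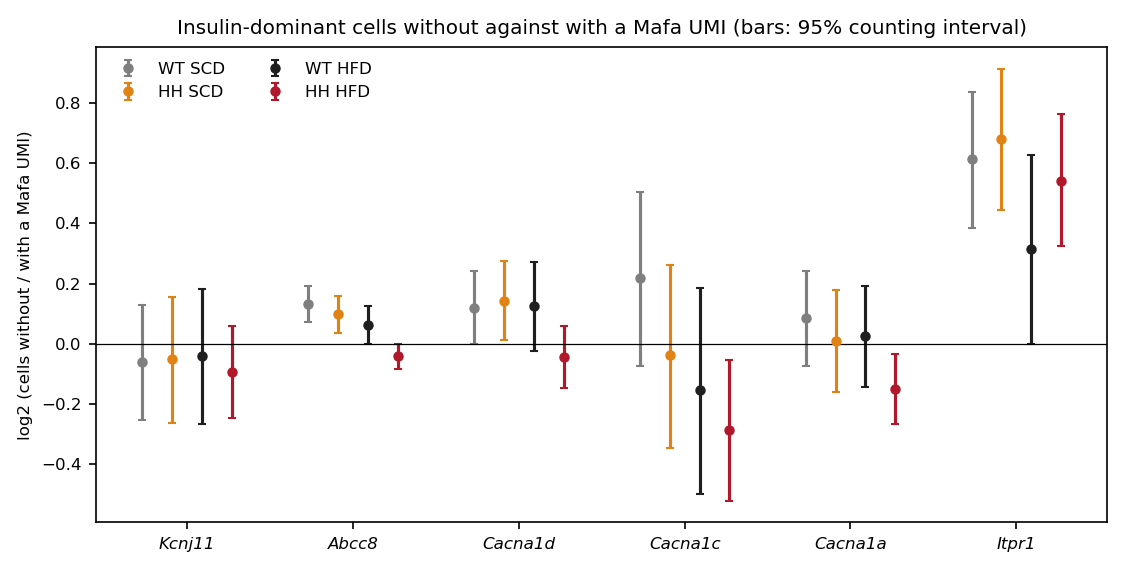
Log2 ratio of CPM in insulin-dominant cells without a Mafa UMI over those with one (y axis) for 6 channel genes (x axis), 1 point a library with its 95% counting interval. Itpr1 lies at 0.32 to 0.68 in the 4 libraries and Kcnj11 at -0.09 to -0.04.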

How the data were processed

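The authors pooled islets of several mice per library, aligned 3-prime reads to GRCm38 with Cell Ranger (version 6.0, per the labels) and deposited filtered UMI counts per gene and barcode, not normalised. The study's removal of ambient RNA and doublets came after these files.

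Cells were kept with under 10% mitochondrial UMIs, 3000 to 50000 UMIs and 2000 to 5000 genes, and Scrublet doublets were removed (scanpy 1.11.5). Its threshold marked 40, 46, 9 and 7 cells in WT SCD, HH SCD, WT HFD and HH HFD. Removal by score rank, which took 81, 80, 33 and 154 cells, was therefore added after the data were seen. The part of unmarked doublets in the foreign share of HH HFD insulin-dominant cells was not tested. The leading hormone set the class if it held at least 5% of UMIs and 2 times the next hormone, and if non-endocrine markers held under 0.2%. Counts were summed per class and library. Classes were tested with edgeR 4.0.16 (quasi-likelihood, TMM, library block, Benjamini-Hochberg, FDR 0.05). Each combination of genotype and diet has 1 library, so ratios carry exact binomial intervals and no test, with a fold of 1.3 and a minimum of 10 CPM on the mean of both libraries. An additive fit of genotype and diet over the 4 libraries, with 1 residual degree of freedom, was not run. Sums carry exact Poisson and shares exact Clopper-Pearson intervals. The steps were tested on simulated counts.

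The members and lists were chosen with earlier results of these data known. Named genes were the members, list genes past the fold in HFD (up to 3 each way a list) and the 3 genes most like each member. Some items that these rules name are not reported here. Promoter sequences came from RefSeq and positions from GENCODE M21.

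The 4 libraries of the class tests differ in genotype and diet, which the block absorbs, so their p-values measure the spread of class differences over these libraries. Alternatives were DESeq2, other library sizes, cell filters, doublet handling, class rules, ambient subtraction, other folds and minimums, and each library left out.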

Additional observations from a re-analysis of the deposited data

How the results depend on the processing

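Library sizes from all UMIs, added after the data were seen, turned the sign for insulin- against glucagon-dominant cells of Cacna1c (-0.31), Abcc8 (-0.39) and Cacna1d (-0.22), against somatostatin of Cacna1c (-0.48) and Cacna1d (-0.11), against pancreatic polypeptide of Cacna1a (-0.13), and for glucagon against somatostatin of Itpr1 (-0.36), Cacna1c (-0.17) and Kcnj11 (-0.30). Library sizes outside the hormones turned the last 3 to -0.20, -0.019 and -0.15. Of 288 alternative values between classes, 248 kept direction and side of the threshold, 19 lost a call, 9 gained one and these 12 turned. The members called for insulin against glucagon were 3 without the library block and 3 to 4 with a library left out, fewest without HH SCD. Those for insulin against somatostatin were 4 to 5, against pancreatic polypeptide 4 to 5 and for glucagon against somatostatin 3. The member median of HH over WT in HFD was -0.14 with median-of-ratios scaling. In HFD, 1 member passed the fold with ambient UMIs subtracted (Itpr1, then under the minimum) or at a fold of 1.2 (Cacna1a), which 25.6% of all genes passed. Between diets, 1 member passed in WT with the looser filter or with doublets kept, and 0 in HH with median-of-ratios scaling. Of 490 alternative values of HH over WT per member and class, 482 stayed within the counting interval. Pairing HH with WT over the diets, with 1 residual degree of freedom, was not run. Other causes of these shifts were not tested. Ryr2 is at or near 0 UMIs in all classes, for which capture and annotation were not tested, and few UMIs limit Cacna1c in pancreatic polypeptide-dominant cells.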
